A study of Mus musculus with 8 samples.

Results

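A set of 10 imprinted genes was followed in mouse retina during photoreceptor degeneration: H19, Igf2, Igf2r, Dlk1, Meg3, Peg3, Plagl1, Cdkn1c, Grb10 and Mest. They were chosen by symbol, and all 10 matched a row among the 57010 gene identifiers of the count table and passed the filter on low counts. H19 led to the choice because its level was higher in every rd10 group than in wild type, so its difference from wild type is described here and was not tested. An imprinted gene is transcribed mainly or only from the copy inherited from 1 parent, under marks of DNA methylation set in the germ line. Many imprinted genes regulate growth before birth, and several of those studied here are strongly expressed in the embryo and then silenced in most tissues after birth.

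Poly(A) RNA of whole retina was sequenced from 2 genotypes, wild type (WT) at postnatal day 15 (P15) and rd10 at P15, P18 or P21, with 2 libraries per group, 8 libraries in all and 1 whole retina in each. rd10 mice are homozygous for a missense mutation in Pde6b, which encodes the rod phosphodiesterase beta subunit, and their rods degenerate in the weeks after eye opening. The WT mice are described as C57BL/6J and as littermate controls, and no other allele or agent is given for these groups. WT retina was sampled at P15 only, so that in the comparisons of rd10 P18 and rd10 P21 with WT P15 age and genotype cannot be told apart. Sex also differed between groups: by their Y-linked counts, both WT libraries were female, both rd10 P15 libraries were male, and replicate 1 of rd10 P18 and of rd10 P21 was male and replicate 2 female. At P15 genotype and sex therefore cannot be told apart.

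Total counts lay between 28076947 and 33724562 per library. Summed levels of 8 rod markers were 43301 to 53478 CPM, counts scaled to library size, in WT P15 and 20205 to 33553 CPM in the 6 rd10 libraries. Pde6b itself was at 2128 to 2335 CPM in WT P15 and 964 to 1799 CPM in rd10, and since the mutation changes 1 codon, its level does not check the genotype. In whole tissue, fewer cells of a type and less RNA per cell cannot be told apart. The rd10 P18 replicates differed most, with a chi-square per gene of 95.0 between them against 23.02 to 36.7 in the other groups. Replicate 1 of this pair was the lowest of the 8 libraries for 24.5% of the 17765 genes with counts in all of them, the largest share of any library, and results that rest on it are also given without it.

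H19 is a spliced, polyadenylated long non-coding RNA of the distal end of mouse chromosome 7, expressed from the maternal copy, and it is the precursor of the microRNA miR-675. Its gene lies at chr7:142575529-142578143 on the minus strand of GRCm38, downstream of Igf2, with which it shares enhancers. The miR-675 hairpin lies in an exon, at bases 997 to 1080 of an annotated H19 transcript of 2286 bases. It is printed below with both mature arms, because it is the part of H19 with a sequence-specific product; the hairpin has its arms in capitals and each mature sequence has its seed, bases 2 to 8, in capitals. The sequences are from RefSeq (GRCm38.p6), chr7:142577064-142577147, minus strand.

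Mir675 hairpin: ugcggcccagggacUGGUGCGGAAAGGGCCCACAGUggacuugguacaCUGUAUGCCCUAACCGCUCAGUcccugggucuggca
mmu-miR-675-5p: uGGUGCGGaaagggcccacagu
mmu-miR-675-3p: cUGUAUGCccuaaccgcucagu

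Other members carry microRNAs too. Mir483 lies in an intron of Igf2 and Mir335 in an intron of Mest, and an arm of each is printed for comparison with miR-675.

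mmu-miR-483-3p: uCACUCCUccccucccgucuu
mmu-miR-335-5p: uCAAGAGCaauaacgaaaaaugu

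The 4 mature sequences had 4 different seeds, and each seed was held by 1 of the 1738 mature mouse microRNAs in the RefSeq table. The microRNAs themselves are too short for these poly(A) libraries, so that only their host transcripts were measured.

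Per kilobase of annotated exon, the members spanned a wide range of levels. Averaged over the 8 libraries, Meg3 stood highest at 83.8 CPM per kb, followed by Mest at 29.2, Peg3 at 19.5, Grb10 at 11.7 and Cdkn1c at 9.88 CPM per kb. Igf2 (6.94), Igf2r (4.90) and Plagl1 (4.81) were lower, on the same scale. H19 was at 1.31 CPM per kb and Dlk1 at 0.0371, the lowest levels of the 10.

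H19 was low in WT retina and higher in each rd10 library. WT P15 had 12 H19 counts in each library (0.443 and 0.388 CPM). The rd10 P15 libraries had 66 and 180 counts (2.10 and 6.35 CPM), the rd10 P18 libraries 200 and 193 (5.97 and 6.08 CPM) and the rd10 P21 libraries 72 and 69 (2.06 and 2.41 CPM). The lowest rd10 library was thus several times above the higher WT library, and the replicates were close together in each group except rd10 P15, where they differed 3.02-fold.

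**Figure D1:**
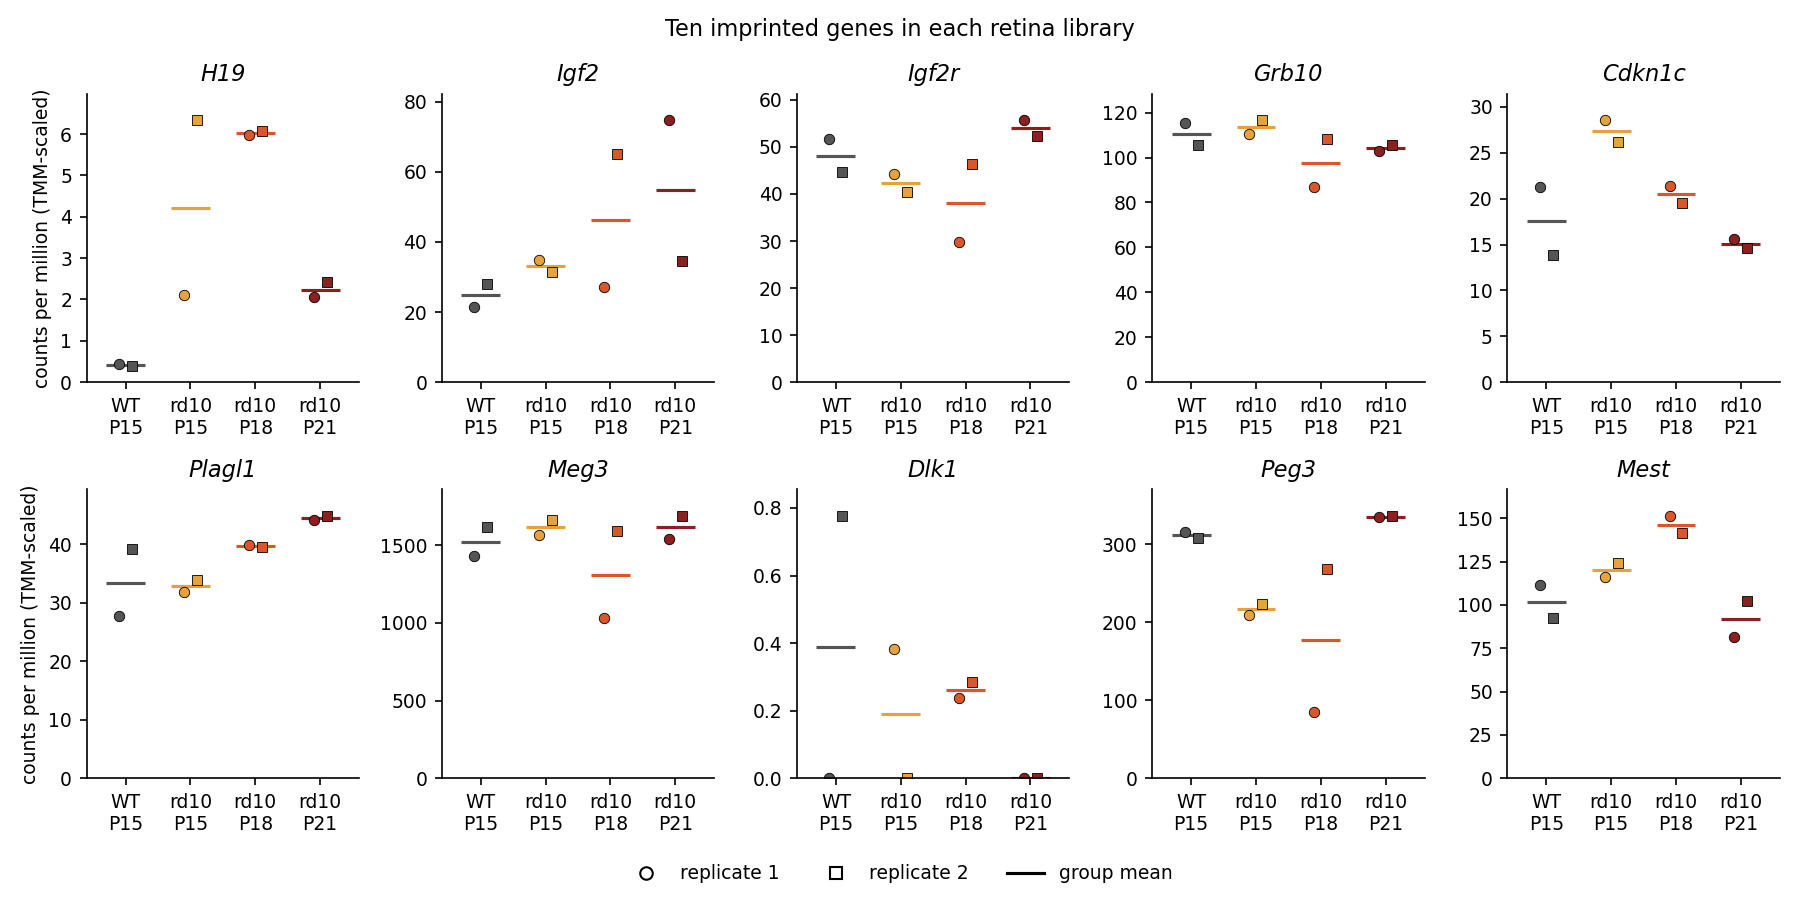
CPM (TMM-scaled counts, vertical axes, each starting at 0) of the 10 imprinted genes in the 8 libraries, by group; circles are replicate 1, squares replicate 2 and lines group means. H19 is at 0.388 to 0.443 CPM in WT P15 and at 2.06 to 6.35 CPM in the rd10 libraries, whereas in every other panel the 6 rd10 libraries are not all on the same side of the WT pair.

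Against WT P15, the H19 level was 10.1-fold higher in rd10 P15 (log2 fold change 3.33, standard error 0.58), 14.4-fold higher in rd10 P18 (3.84, standard error 0.59) and 5.33-fold higher in rd10 P21 (2.41, standard error 0.57). These values are those that chose the gene and are given without a test. Over all genes tested, 7.21% had all 6 rd10 libraries above both WT libraries. Within the female libraries alone, H19 was at 0.443 and 0.388 CPM in WT P15, at 6.08 CPM in rd10 P18 and at 2.41 CPM in rd10 P21. Without replicate 2 of rd10 P15, the log2 fold change at P15 was 2.33, and without replicate 1 it was 3.92.

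The order of the H19 levels was rd10 P18, rd10 P15, rd10 P21 and WT P15, with group means of 6.02 ± 0.0812, 4.22 ± 3.002, 2.23 ± 0.252 and 0.416 ± 0.0389 CPM (SD, n = 2 each). Differences among the rd10 ages were not used in choosing H19 and were tested. Both P21 libraries lay below both P18 libraries, -1.43 on the log2 scale (standard error 0.52), and this difference did not pass (adjusted p = 0.44, edgeR quasi-likelihood test). The libraries overlapped between P18 and P15 (0.51, standard error 0.50, adjusted p = 0.718 by edgeR) and between P21 and P15 (-0.92, standard error 0.51, adjusted p = 0.504 by edgeR). The neighbours in the order of the rd10 means, P18 with P15 and P15 with P21, thus did not differ beyond their spread.

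The genes around H19 were read for a change across the region. Mrpl23, which encodes a mitochondrial ribosomal protein, was at 12.9 to 22.8 CPM over the 8 libraries, Th (tyrosine hydroxylase, made in dopaminergic amacrine cells) at 2.65 to 4.97 CPM and Lsp1, a leukocyte actin-binding protein, at 1.50 to 6.22 CPM. None of these 3 was called by edgeR in any of the 6 comparisons. Nctc1, Ins2 and Tnnt3 had 0 counts in all libraries, and Tnni2, a fast skeletal muscle troponin, had 0 to 13 counts.

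Markers of fibroblasts, pericytes and endothelium moved with H19 in part. The summed level of 7 fibroblast markers (Col1a1, Col1a2, Col3a1, Dcn, Lum, Pdgfra and Ogn) was 32.2 and 33.5 CPM in the WT pair and 45.9 to 66.9 CPM in the rd10 libraries, with Lum at 0 in all 8 and 1 of the 7 genes above both WT libraries in all 6 rd10 libraries. The summed level of 6 pericyte markers was 116 and 117 CPM in the WT pair and 134 to 235 CPM in rd10, and 1 of the 6 was above WT throughout. The 6 endothelial markers summed to 229 and 297 CPM in the WT pair and to 250 to 481 CPM in rd10, so that the groups overlapped, although 4 of the 6 genes were above both WT libraries in all 6 rd10 libraries. The share of all genes tested with all 6 rd10 libraries above both WT libraries was 7.21%.

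Single genes made up much of these sums. Rgs5, the largest part of the pericyte sum, was at 88.3 and 90.8 CPM in the WT pair, 173 and 190 in the rd10 P15 pair and 117 and 109 in the P18 pair. It overlapped WT at P21, with 90.4 and 102 CPM. Pdgfra, a receptor also made by retinal astrocytes, was at 21.2 and 26.1 CPM in the WT pair and 25.1 to 47.7 CPM in rd10, the largest part of the fibroblast sum, which was highest in rd10 P15. The collagen genes of the list had their highest group mean in rd10 P18: for WT P15 and rd10 P15, P18 and P21, the means were 0.545, 0.930, 1.21 and 0.681 CPM for Col1a1, 4.91, 11.3, 11.9 and 10.9 CPM for Col1a2, and 2.85, 6.32, 7.61 and 3.32 CPM for Col3a1. Libraries of rd10 P15 and P18 overlapped for Col1a2 (12.7 and 9.87 against 15.1 and 8.70 CPM) and for Col3a1 (5.63 and 7.02 against 8.50 and 6.71 CPM). Ogn had its highest group mean in rd10 P21 (3.21 CPM), and Dcn had 0 to 21 counts. Kdr made up 418 of the 481 CPM of the highest endothelial sum, in rd10 P21, whereas Pecam1, Cdh5, Cldn5 and Tie1 had their highest group mean in rd10 P15.

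Lens markers summed to 0.443 and 1.68 CPM in the WT pair, 3.25 and 2.71 in the rd10 P15 pair, 4.95 and 3.72 in the P18 pair and 3.08 and 1.36 CPM in the P21 pair, with 1 of 6 at 0 in all libraries, so that this low sum was highest in rd10 P18, as H19 was. Skeletal muscle markers summed to 3.51 to 7.07 CPM, with 3 of 7 at 0. Over the 8 libraries, which share the low WT pair, Pearson's r of the log2 sum with log2 H19 was 0.810 for fibroblast, 0.763 for lens, 0.577 for pericyte, 0.491 for muscle, 0.170 for endothelial and -0.642 for rod markers, a description with no test. It was 0.151 for melanocyte, -0.171 for retinal pigment epithelium and -0.496 for Müller glia markers. The part of these cell types in the H19 level was not tested.

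**Figure D2:**
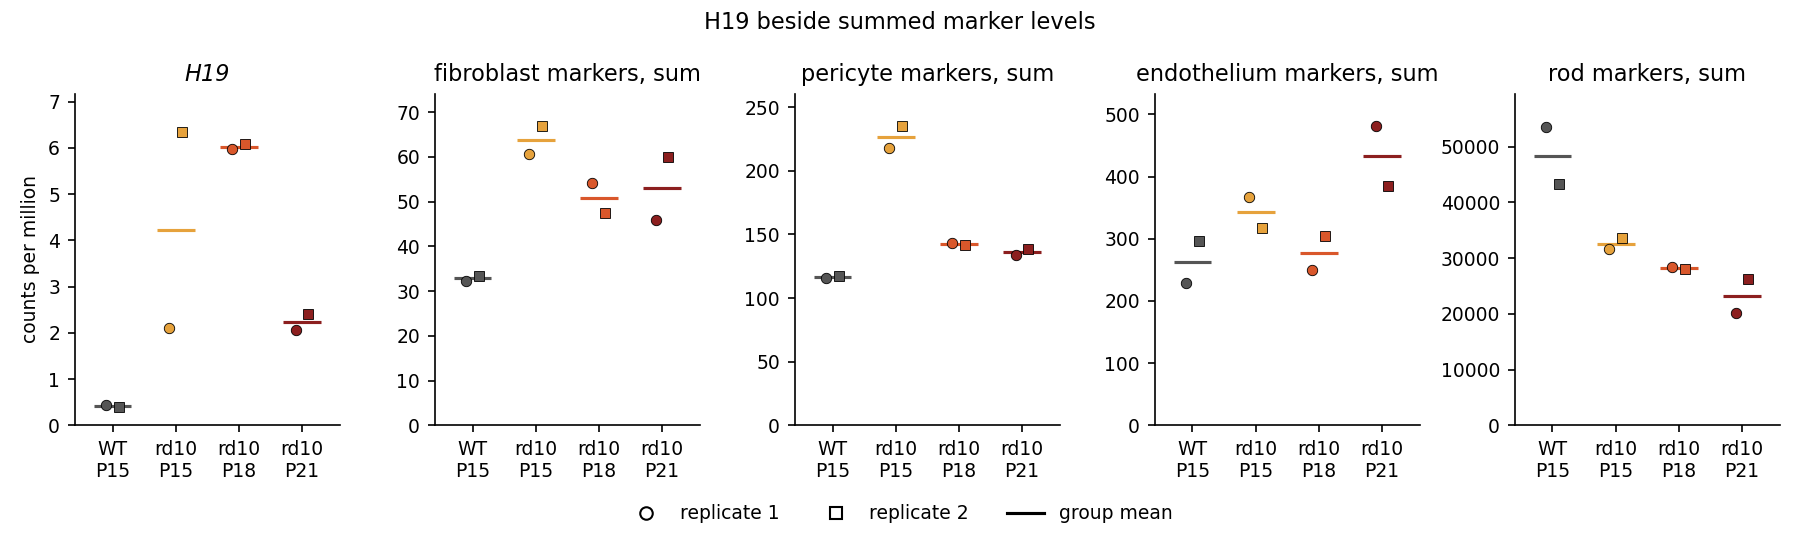
H19 (left) beside the summed levels of fibroblast, pericyte, endothelial and rod markers, all in CPM with axes from 0, by group; circles are replicate 1, squares replicate 2 and lines group means. Fibroblast and pericyte sums are above both WT P15 libraries in all rd10 libraries and highest in rd10 P15, and the rod sum falls from 43301 to 53478 CPM in WT P15 to 20205 to 26338 CPM in rd10 P21.

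Genes with a pattern like that of H19 were ranked by Pearson's r of log2 CPM over the 8 libraries, among 15129 genes with a mean count of at least 50. The 5 most alike were Sdhaf2 (r = 0.990), an assembly factor of succinate dehydrogenase, Nudt11 (0.982), Hnrnpk (0.978), an RNA-binding protein, Scfd2 (0.973) and Fam171a1 (0.971). Their range was narrow beside that of H19: Sdhaf2, on chromosome 19, was at 21.1 to 22.6 CPM in WT P15 and at 26.6 to 32.5 CPM in rd10. These coefficients rank points from 8 libraries that share the low WT pair, and carry no test.

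None of the other 9 members was called in any of the 6 comparisons. A call required a change of more than 1 on the log2 scale in either direction and an adjusted p, over 20457 genes, under 0.05. The share of all tested genes called against WT P15 was 0.23% for rd10 P15, 1.48% for P18 and 0.386% for P21, and a count of 0 of 9 is near such shares. The same held among rd10 ages, where 0 of 10 members were called against 0.591% of all genes for P18 against P15, 0.401% for P21 against P15 and 0.0196% for P21 against P18. DESeq2 also called none of these members, where it called 2.12%, 4.7% and 2.74% of all genes at P15, P18 and P21 against WT P15, 2.99% for P18 against P15, 2.69% for P21 against P15 and 0.582% for P21 against P18.

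Both rd10 libraries lay above both WT libraries for 3 of the 9 at P15, 2 at P18 and 4 at P21, beside 24.8%, 24.1% and 24.9% of all genes tested. Both lay below for 2, 1 and 1 of the 9, beside 24.9%, 22.9% and 24.2% of all genes. These counts are near the background.

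At an unadjusted p under 0.05, 1 of the 9 passed at P15 (Cdkn1c), 1 at P18 (Mest) and 0 at P21 against WT P15, beside 12.3%, 17.4% and 11.8% of all genes tested. Among rd10 ages, 0 of the 10 members passed by edgeR for P18 against P15, beside 12.9% of all genes. For P21 against P15 3 passed (Plagl1, Cdkn1c and Mest), beside 12.8%, and for P21 against P18 3 (H19, Igf2r and Mest), beside 10.8%. The median log2 fold change of the 9 was 0.04 at P15, -0.18 at P18 and 0.08 at P21, beside -0.01, 0.01 and 0.00 over all genes tested.

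Igf2, the paternally expressed insulin-like growth factor II and neighbour of H19, had its higher values in single rd10 libraries. It was at 21.5 and 27.97 CPM in the WT pair, 35.0 and 31.5 in the rd10 P15 pair, 27.1 and 65.2 in the P18 pair and 74.9 and 34.7 CPM in the P21 pair. The rd10 P15 and P21 libraries lay above both WT libraries and the P18 libraries overlapped them, while replicates of P18 and P21 differed 2.40-fold and 2.16-fold. The log2 fold changes against WT P15 were 0.42 (standard error 0.48, adjusted p = 0.805), 0.90 (0.49, 0.405) and 1.15 (0.49, 0.433) at P15, P18 and P21 by edgeR.

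The 2 libraries with the highest Igf2 were replicate 2 of rd10 P18 and replicate 1 of rd10 P21, where H19 was at 6.08 and 2.06 CPM. Without replicate 2 of rd10 P18 the P18 value of Igf2 was 0.13, and without replicate 1 of rd10 P21 the P21 value was 0.48. The gene most like Igf2 was Mlec, a lectin of the endoplasmic reticulum (r = 0.972 over 8 libraries). Of the exon bases of Igf2, 62.8% are shared with the annotated gene model Gm49394, which had 0 counts in all libraries.

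Igf2r encodes the cation-independent mannose 6-phosphate receptor, which carries IGF2 to lysosomes and is expressed from the maternal copy. It was at 51.6 and 44.7 CPM in the WT pair, 44.2 and 40.4 in the rd10 P15 pair, 29.8 and 46.3 in the P18 pair and 55.8 and 52.4 CPM in the P21 pair. Both rd10 P15 libraries were below, and both rd10 P21 libraries above, both WT libraries. The log2 fold changes were -0.19, -0.34 and 0.17 at P15, P18 and P21 (standard error 0.21 each), none past the test. Without replicate 1 of rd10 P18 the P18 value was -0.057. Its antisense partner Airn, a long non-coding RNA, had 74 to 151 counts and shares no exon base with Igf2r.

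Grb10, an adaptor that restrains insulin and IGF receptor signaling, was the steadiest of the 10. It was at 115 and 105 CPM in the WT pair and between 86.9 and 117 CPM in rd10, so that its highest library was 1.34-fold above its lowest. The log2 fold changes were 0.04, -0.18 and -0.08 at P15, P18 and P21 (standard error 0.14 each), and the P18 value was -0.027 without replicate 1 of rd10 P18.

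Cdkn1c, the cyclin-dependent kinase inhibitor p57 and a maternally expressed gene of the same chromosome end as H19, was highest in rd10 P15. It was at 21.3 and 13.9 CPM in the WT pair, 28.6 and 26.2 in the rd10 P15 pair, 21.4 and 19.5 in the P18 pair and 15.6 and 14.6 CPM in the P21 pair. Within rd10 the libraries of the 3 ages did not overlap, with P15 above P18 and P18 above P21. On the log2 scale P21 against P15 came to -0.86 (standard error 0.23, adjusted p = 0.175 by edgeR) and P15 against WT P15 to 0.64 (0.22, adjusted p = 0.294 by edgeR), and neither passed. An antisense gene, Gm44732, covers 30.65% of its exon bases with 0 to 47 counts, and whether the counting used strand is not given in the sources used here.

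Plagl1, a zinc-finger transcription factor that represses growth and is expressed from the paternal copy, was at 27.7 and 39.1 CPM in the WT pair and 31.9 to 44.9 CPM in rd10. Both libraries at P18 and P21 were above both WT libraries, at P18 by less than 1 CPM. Its log2 fold changes were -0.03, 0.25 and 0.41 at P15, P18 and P21 (standard error 0.18 each), and the largest had an adjusted p of 0.429 by edgeR.

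Meg3 and Dlk1 are neighbours on chromosome 12 and are expressed from opposite parental copies. Meg3, a maternally expressed long non-coding RNA abundant in neurons, was at 1429 and 1617 CPM in the WT pair and between 1032 and 1690 CPM in rd10, with log2 fold changes of 0.09, -0.22 and 0.08 (standard error 0.20 each), and the P18 value was 0.061 without replicate 1 of rd10 P18. Dlk1, a transmembrane ligand-like protein related to the Notch ligands and paternally expressed, was barely detected. Its counts were 0 and 24 in the WT pair, 12 and 0 in the rd10 P15 pair, 8 and 9 in the P18 pair and 0 in each library of the P21 pair. Against a floor of 3 counts over the rd10 P21 libraries, its mean in WT P15 (0.388 CPM) was at least 8.24-fold higher, a bound that rests on replicate 2 of WT P15 alone. The gene with the pattern most like that of Dlk1 was 2810410L24Rik (r = 0.939).

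Peg3, a paternally expressed zinc-finger protein abundant in brain, differed most between the rd10 P18 replicates. It was at 316 and 309 CPM in the WT pair, 209 and 224 in the rd10 P15 pair, 85.3 and 268 in the P18 pair and 335 and 337 CPM in the P21 pair. The rd10 P15 and P18 libraries were below both WT libraries and the rd10 P21 libraries just above them. The log2 fold changes against WT P15 were -0.53 (standard error 0.46, adjusted p = 0.723), -0.82 (0.46, 0.425) and 0.10 (0.46, 0.975) at P15, P18 and P21 by edgeR. Without replicate 1 of rd10 P18 the P18 value was -0.22. Without replicate 2 it was -1.87, with replicate 1 as the only library of its group.

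Replicate 1 of rd10 P18 was the lowest of the 8 libraries for 4 of the 10 members, Igf2r, Meg3, Peg3 and Grb10, a share read beside the 24.5% of all genes given above.

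Mest, a paternally expressed gene of the alpha/beta hydrolase fold family, was highest in rd10 P18. It was at 112 and 92.2 CPM in the WT pair, 116 and 124 in the rd10 P15 pair, 152 and 141 in the P18 pair and 81.8 and 102 CPM in the P21 pair. Both P15 and both P18 libraries were above both WT libraries, and the P21 libraries overlapped them. For P18 against WT P15 its log2 ratio was 0.52 (standard error 0.16, adjusted p = 0.144), and for P21 against P18 it was -0.67 (0.16, adjusted p = 0.406), both by edgeR. Copg2, which lies on the opposite strand and shares 23.1% of the exon bases of Mest, was at 92.4 to 109 CPM and was called by edgeR in no comparison.

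**Figure D3:**
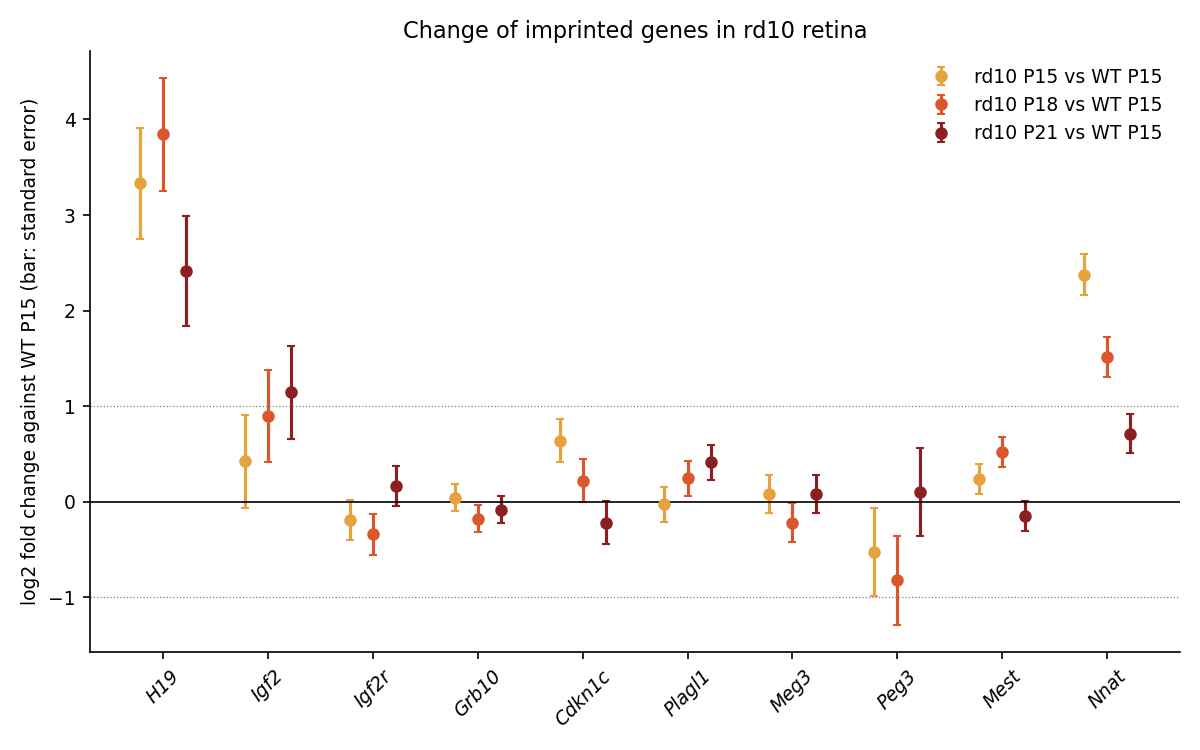
Log2 fold change against WT P15 (vertical axis) of 9 of the 10 imprinted genes and of Nnat at P15, P18 and P21; points are edgeR estimates from 2 libraries per group, bars are standard errors and dotted lines mark a log2 fold change of 1 in either direction. H19 lies between 2.41 and 3.84 and Nnat between 0.71 and 2.37, while the other genes lie between -0.82 and 1.15. Dlk1 is left out because several of its libraries have no counts.

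A wider list of 54 imprinted genes was read beside the members, of which 51 had a count and 45 were tested. Nnat was called higher at P15 and at P18 against WT P15 and was the 1 gene of the list called in these comparisons, beside 0.137% and 1.15% of all genes called higher. None of the 45 was called at P21 against WT P15 by edgeR, where 4 had an unadjusted p under 0.05, beside 11.8% of all genes. DESeq2 called 1 there, beside 2.74% of all genes. The median log2 fold change of the 45 was 0.20, 0.11 and -0.05 at P15, P18 and P21. Among rd10 ages Nnat was called lower in P21 than in P15, and no gene of the list was called for P18 against P15 or for P21 against P18, where 8 and 4 had an unadjusted p under 0.05, beside 12.9% and 10.8% of all genes. DESeq2 called 0 of the list in each, beside 2.99% and 0.582% of all genes.

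Nnat encodes neuronatin, a small membrane protein of developing neurons that is expressed from the paternal copy. It was at 16.7 and 12.1 CPM in the WT pair, 65.8 and 83.7 in the rd10 P15 pair, 41.7 and 40.9 in the P18 pair and 26.0 and 21.3 CPM in the P21 pair. All 6 rd10 libraries were above both WT libraries, and the 3 rd10 ages did not overlap. The log2 fold changes against WT P15 were 2.37 (standard error 0.21, adjusted p = 0.00805), 1.52 (0.21, 0.0188) and 0.71 (0.21, 0.209) at P15, P18 and P21 by edgeR, and P21 against P15 was -1.66 (0.21, adjusted p = 0.0222). It was highest at P15, and its replicates differed by 1.38-fold or less in every group.

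The call at P15 was lost with a term for sex (2.22, adjusted p = 0.116 by edgeR) and without replicate 2 of rd10 P15 (2.19, adjusted p = 0.055). The call at P18 was lost with only the 4 libraries compared (1.53, adjusted p = 0.0599) and without replicate 1 (1.77, adjusted p = 0.0663) or replicate 2 (1.31, 0.0941) of WT P15. That of P21 against P15 was lost without any 1 of its 4 libraries (-1.48 to -1.82).

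Markers of pigmented cells were highest in the same libraries as Nnat. The 6 markers of retinal pigment epithelium summed to 44.3 and 150 CPM in the WT pair, 197 and 232 CPM in the rd10 P15 pair and 20.9 to 35.4 CPM at P18 and P21. The 6 melanocyte markers summed to 9.09 and 42.6 CPM in the WT pair, 104 and 108 CPM in the rd10 P15 pair and 12.6 to 21.8 CPM at P18 and P21. Nnat at P18 and P21 was above both WT libraries while these sums were below that of WT replicate 2, and their part in the Nnat level was not tested. Müller glia markers summed to 3443 to 5228 CPM over the 8 libraries.

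A further 6 genes of this list were named by the size of their change, and none was called by edgeR in the fit of all 8 libraries. Dio3, a deiodinase that inactivates thyroid hormone, was at 1.37 and 0.777 CPM in the WT pair and 0.756 to 4.68 CPM in rd10. Peg10, derived from a retrotransposon, was at 9.46 and 13.05 CPM in the WT pair and at 15.8 to 28.4 CPM in all 6 rd10 libraries, with log2 fold changes of 0.66, 1.01 and 0.91. Ppp1r9a, a neuronal actin-binding scaffold, was at 198 and 183 CPM in the WT pair and at 66.3 to 117 CPM in rd10 P18 and P21, with log2 fold changes of -1.05 (adjusted p = 0.107) and -1.27 (0.118) by edgeR.

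Some of these genes were called under other settings. DESeq2 called Peg10 at P18 and Ppp1r9a at P18 and P21 against WT P15, and Ppp1r9a and Atp10a for P21 against P15. By edgeR, Ppp1r9a was called at P21 against WT P15 with only the 4 libraries compared and without either rd10 P18 library, and for P18 and P21 against P15 with a term for sex. Leaving out replicate 1 of rd10 P18 gave a call of Peg10 at P18 and of Ppp1r9a for P21 against P15, and leaving out replicate 2 gave calls of Ppp1r9a at P18 against WT P15 and P15 and for P21 against P15. Dio3 was called at P18 against WT P15 without replicate 2 of rd10 P18.

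The rest were low or overlapped. Usp29 was at 29.6 and 10.9 CPM in the WT pair and 4.68 to 16.8 CPM in rd10, and Magel2 was at 0.813 and 2.04 CPM in the WT pair and 0.805 to 6.49 CPM in rd10. Atp10a, a phospholipid flippase, was at 4.77 and 2.88 CPM in the WT pair, 1.15 and 2.47 in the rd10 P15 pair, 4.09 and 5.86 in the P18 pair and 7.08 and 5.03 CPM in the P21 pair.

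Of 15 further genes of the IGF pathway, 14 were tested. Igfbp2 and Igfbp7, which encode secreted IGF-binding proteins, were called higher at P18 against WT P15, 2 of 14 beside 1.15% of all genes, and none of the 14 was called at P15 or P21 against WT P15 by edgeR, where 6 and 4 had an unadjusted p under 0.05, beside 12.3% and 11.8% of all genes, and DESeq2 called 2 and 0. No gene of the list was called among the rd10 ages by edgeR, with 3 at an unadjusted p under 0.05 in each comparison, beside 12.9% of all genes for P18 against P15, 12.8% for P21 against P15 and 10.8% for P21 against P18, and with 2, 0 and 1 called by DESeq2. Over all genes, DESeq2 called 2.12% and 2.74% at P15 and P21 against WT P15. Among the rd10 ages it called 2.99%, 2.69% and 0.582% of all genes, in the same order. Igfbp2 was at 17.2 and 17.5 CPM in the WT pair, 22.4 and 19.8 in the rd10 P15 pair, 58.8 and 32.0 in the P18 pair and 27.2 and 28.1 CPM in the P21 pair. Igfbp7, which is also made by vessels, was at 16.8 and 19.004 CPM in the WT pair, 46.6 and 44.2 in the rd10 P15 pair, 58.3 and 34.3 in the P18 pair and 28.7 and 34.4 CPM in the P21 pair. All 6 rd10 libraries were above both WT libraries for both genes.

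At P18 the rise on the log2 scale was 1.38 for Igfbp2 (standard error 0.27, adjusted p = 0.045) and 1.37 for Igfbp7 (0.25, adjusted p = 0.0371) by edgeR. Without replicate 1 of rd10 P18 these values were 0.88 and 0.94, so that the fold was no longer past the threshold. With a replicate block, neither was called (adjusted p = 0.0596 and 0.0613), nor with a term for sex (0.113 and 0.103), with only the 4 libraries compared (0.141 and 0.126), or without replicate 1 (0.263 and 0.254) or replicate 2 (0.187 and 0.141) of WT P15, all by edgeR. Leaving out either rd10 P15 library also ended both calls (0.0776 and 0.0787 for Igfbp2, 0.0732 and 0.0745 for Igfbp7), and leaving out either rd10 P21 library ended that of Igfbp2 (0.0631 and 0.0607). Igfbp2 and Igfbp7 both kept their call at P18 with DESeq2, RLE factors, library size only or no filter on low counts. At P15 Igfbp7 was at 1.34 on the log2 scale and was not called (adjusted p = 0.0694 by edgeR). DESeq2 called it there, as did edgeR with no filter or with only the 4 libraries compared. Igfbp4 had log2 fold changes of 1.23, 1.12 and 0.94 and Igfbp3 of 1.17, 1.47 and -0.02 at P15, P18 and P21, with no call by edgeR in the fit of all 8 libraries. DESeq2 called Igfbp4 at P15 and P18 and Igfbp3 at P18, and edgeR called Igfbp4 at P15 and P18 with no filter on low counts or without replicate 2 of rd10 P18, at P18 with library size only, and at P15 with only the 4 libraries compared or without replicate 1 of rd10 P18. The receptor Igf1r was at 236 and 220 CPM in the WT pair and 136 to 238 CPM in rd10.

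**Figure D4:**
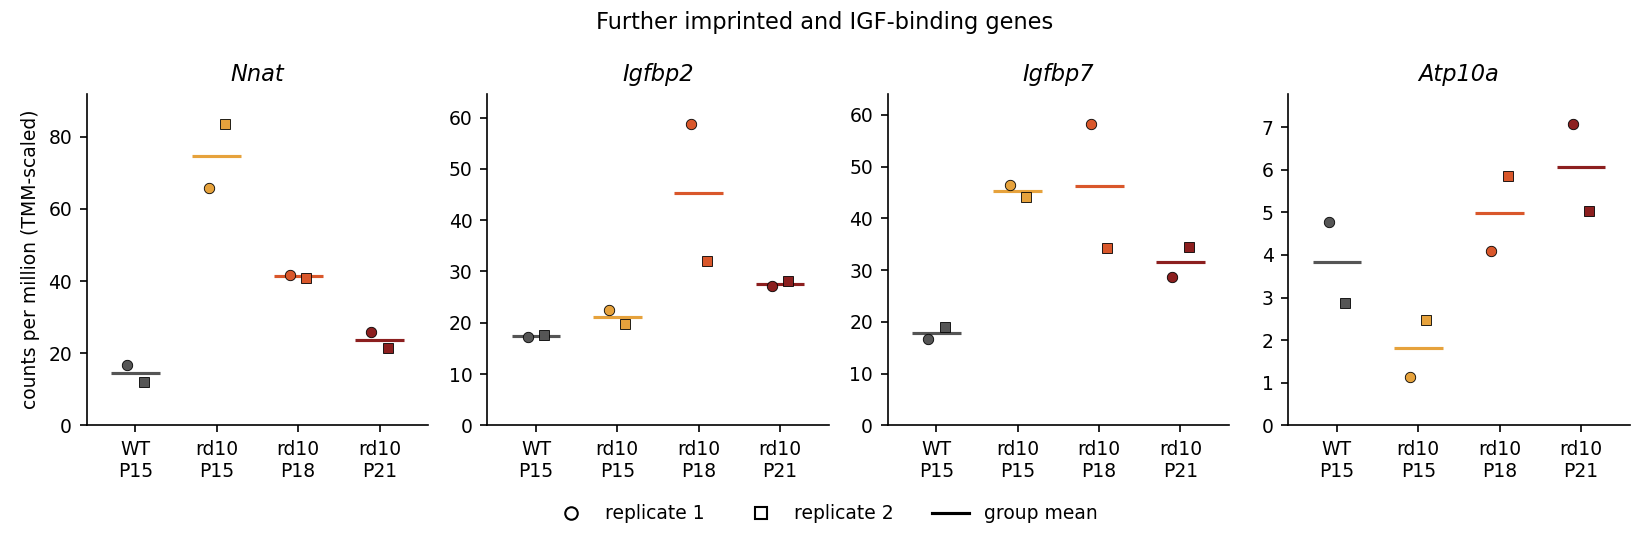
CPM (TMM-scaled counts, axes from 0) of Nnat, Igfbp2, Igfbp7 and Atp10a in the 8 libraries, by group; circles are replicate 1, squares replicate 2 and lines group means. Nnat falls from 65.8 to 83.7 CPM in rd10 P15 to 21.3 to 26.0 CPM in rd10 P21, Igfbp2 and Igfbp7 have their highest value in replicate 1 of rd10 P18 (58.8 and 58.3 CPM), and Atp10a lies below both WT libraries in rd10 P15 and above both in rd10 P21.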

How the data were processed

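Whole-retina poly(A) RNA-seq libraries were made from 1 retina each and sequenced on an Illumina platform. The authors deposited raw read counts per Ensembl gene, without normalization; HISAT2 is named in the submitters' processing notes, without a version, and the sources used here do not give the counting tool, strand setting, genome build or annotation. Symbols, coordinates and overlaps came from GENCODE M21 (GRCm38), and microRNA sequences from RefSeq (GRCm38.p6). Exons unlike those of the authors' annotation would change the levels per kilobase.

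Counts were analysed in R 4.3.3 with edgeR 4.0.16: filterByExpr (minimum count 10), TMM scaling and robust quasi-likelihood fits of all 8 libraries, with Benjamini-Hochberg adjustment over 20457 genes. The threshold of a call was an adjusted p of 0.05 together with a change of 1 on the log2 scale. Alternatives were DESeq2 1.42.0, RLE factors, library size only, no filter, the 4 libraries compared, a replicate block, a term for sex, no fold threshold and each library left out. The term for sex was informed only by the rd10 P18 and P21 pairs, where replicate 1 was the male library in both. Replicates are separate retinas. By their Y-linked counts, the rd10 P18 and rd10 P21 pairs each held a male and a female library and so came from different animals. For the WT P15 and rd10 P15 pairs, whether the animals were separate is not stated, so that p-values measure the spread between these libraries. The 10 members and all lists were chosen with earlier results of these data known. Beside the members, the text names genes of the 2 wider lists that were called in any comparison, or were among the 3 with the largest absolute change at a mean count of at least 50 in a comparison with WT P15, the genes most like H19, Igf2 and Dlk1, and neighbours of H19. Pde6b, Igf1r, Copg2, Airn, Zim1 and Ube3a were named after their values were seen. The floor of 3 counts covers counting error only. In simulated data for rd10 P18 against WT P15, 84 of 200 genes changed by a log2 fold change of 1.5 were called, with 8 unchanged genes among 19603. Figures were drawn with matplotlib 3.10.9.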

Additional observations from a re-analysis of the deposited data

Results flagged for a closer look

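Nnat differed between 2 rd10 ages in a direct test, and P21 against P15 passed with a log2 fold change of -1.66 (adjusted p = 0.0222 by edgeR).

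For 6 of the 69 tested genes among the members, the other imprinted genes and the IGF pathway, both libraries of 1 rd10 age lay above both WT P15 libraries and both libraries of another age below them, 8.7% beside 9.45% of all genes tested. The direct comparison of those ages by edgeR called none of the 6, so that their ages are not shown to differ, while DESeq2 called Atp10a. Igf2r had log2 fold changes of -0.19 at P15 and 0.17 at P21. Peg3 had -0.53 at P15, -0.82 at P18 and 0.10 at P21. Zim1 had 0.40 at P15 and -0.52 at P21, and Ube3a had 0.24 at P15 and -0.40 at P21. Atp10a had -1.08 at P15 and 0.67 at P21. Igfbp6 was at 2.00 and 2.33 CPM in the WT pair, below both of these in all rd10 P15 and P18 libraries (0.955 to 1.54 CPM) and above both in rd10 P21 (2.48 and 2.73 CPM).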

How the results depend on the processing

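The precision was limited by 2 libraries per group, by 12 H19 counts in each WT library and by WT retina at P15 only. Of 600 alternative values of 40 single fold changes, 549 kept their direction and their side of the threshold. Most of the 40 were not called in the fit of all 8 libraries, so that staying uncalled was the likely outcome for them. Of the other values, 17 turned direction, 7 gained a call and 27 lost one. All 27 belonged to the called values, those of Nnat at P15, P18 and P21 against P15 and of Igfbp2 and Igfbp7 at P18. H19 against WT P15 stayed higher under every alternative run. These runs refit the values that chose the gene, so that this describes those values and adds no support. At P18 the log2 fold change of H19 was 3.97 with library size only. With each library left out in turn, H19 was at 2.33 to 3.92 at P15, 3.75 to 3.95 at P18 and 2.30 to 2.53 at P21.

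Apart from fits with a library left out, no member was called under any alternative, where H19 was not counted against WT P15. Of those counted, Peg3 alone passed with a library left out, when replicate 1 was the only rd10 P18 library. In that fit the calls over all genes rose as well, and it rests on 1 library in that group. For the other imprinted genes, DESeq2 called 3 in P18 (Nnat, Peg10 and Ppp1r9a) and 1 in P21 retina (Ppp1r9a) against WT P15, and 3 for P21 against P15. The shares of all genes it called there were 4.7%, 2.74% and 2.69%. The term for sex called 0 at P15 against WT P15, 1 for P18 against P15 and 2 for P21 against P15. Over all 20457 genes it called 4, 275 and 156 in these comparisons. With only the 4 libraries compared, the calls numbered 0 for P18 and 1 for P21 against WT P15. Over all genes they numbered 143 of 19128 and 129 of 18957. With a library left out, the counts were 0 to 1 at P15, 0 to 6 at P18 and, at P21, 0 to 1 against WT P15, 0 to 3 for P18 against P15, 0 to 2 for P21 against P15 and 0 to 1 for P21 against P18, the highest without replicate 2 of rd10 P18. The cause was not tested.

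Directions turned mostly for small changes. With the term for sex, the log2 fold change was 0.085 for Igf2r, 0.30 for Peg3 and -0.14 for Igfbp2 at P15 and 0.0068 for Grb10 at P21. Peg3 at P15 was at -0.53 without the term. In the pairs that inform this term, sex cannot be told apart from replicate number, and Peg3 was at 85.3 CPM in replicate 1 of rd10 P18 and 268 CPM in replicate 2. With library size only, it was 0.014 for Plagl1 at P15 and 0.029 for Grb10 at P21. With a library left out, Meg3 was -0.00037 to 0.18 at P15 and -0.56 to 0.061 at P18, Plagl1 -0.25 to 0.25 at P15, Cdkn1c -0.057 to 0.57 at P18 and -0.50 to 0.13 at P21, Grb10 -0.020 to 0.11 at P15 and Mest -0.31 to 0.0098 at P21, all against WT P15. H19 was -0.070 to 1.52 for P18 against P15 and -1.50 to 0.088 for P21 against P15.

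Replicate numbers did not pair the libraries: deviations of same-numbered libraries correlated between -0.0245 and 0.0594. With a replicate block, H19 was 3.23, 3.85 and 2.40 for P15, P18 and P21 over WT P15, and of the named genes only Igfbp2 and Igfbp7 lost their call.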
